A study of Rattus norvegicus with 15 samples.

Results

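Transcripts of 9 genes of the Bcl2 family and the initiator caspases (Bax, Bak1, Bcl2, Bcl2l1, Bcl2l11, Mcl1, Bid, Casp8 and Casp9) were followed in rat multifidus, a paraspinal muscle. The members were the rows whose gene symbol is one of these names, 9 of the 37991 genes in the table, and none shared its symbol with another row. The 15 RNA-seq libraries came from wild-type male Sprague Dawley rats of 12 weeks in 5 groups. The control group (2 libraries) had no injury. The surgery group (2 libraries) and the 3 treated groups had a hemilaminectomy with ligation and cutting of the left L5 spinal nerve. The VitD group (3 libraries) received cholecalciferol at 150 μg per site, 300 μg in total. The pMT group (4 libraries) received mitochondria isolated from human plasma at 25 μg per site, 50 μg in total, and the pMT/VitD group (4 libraries) received both. Mitochondria were injected on day 14 and tissue was collected on day 28 in the pMT group, while the days of the groups with vitamin D are not given in the sources used here. The labels do not say whether each library is a separate rat, so p-values measure the spread between these libraries, which may be technical. The study asked whether injected mitochondria lessen the wasting of the injured muscle and restore its mitochondrial function.

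The Bcl2 family decides whether the outer membrane of the mitochondrion is breached during apoptosis. Bcl2, Bcl2l1 (Bcl-xL) and Mcl1 bind and hold back Bax and Bak1, which otherwise assemble into pores, and the BH3-only proteins Bcl2l11 (Bim) and Bid relieve that block or activate the pore formers. Cytochrome c that escapes through the pores activates the initiator caspase Casp9 on the apoptosome, whereas Casp8 is activated at death receptors and cuts Bid, which joins the receptor pathway to the mitochondrial one. In skeletal muscle, whose fibres hold many nuclei, these proteins have been studied in denervation and disuse atrophy.

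RefSeq promoter windows (GRCr8 assembly, from 250 bases before to 50 bases after a transcription start site) were at hand for 7 of the 9 members. The 250 bases before the start site are shown for Mcl1, the member with the highest transcript level, for Bcl2, the member with the lowest, and for Bcl2l11, whose level split the libraries of the pMT/VitD group. Capitals mark matches, on either strand, to the FoxO core element GTAAACA, the GC box GGGCGG or the TATA box TATAAA. The Bcl2l11 stretch lies on chr3:135819792-135820041 (plus strand), that of Mcl1 on chr2:185907918-185908167 (plus strand) and that of Bcl2 on chr13:23366901-23367150 (minus strand).
Bcl2l11: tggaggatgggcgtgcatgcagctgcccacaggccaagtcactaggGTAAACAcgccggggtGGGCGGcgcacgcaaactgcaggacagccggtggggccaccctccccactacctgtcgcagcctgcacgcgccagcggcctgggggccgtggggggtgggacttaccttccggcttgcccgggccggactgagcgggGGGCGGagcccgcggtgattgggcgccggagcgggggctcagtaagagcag
Mcl1: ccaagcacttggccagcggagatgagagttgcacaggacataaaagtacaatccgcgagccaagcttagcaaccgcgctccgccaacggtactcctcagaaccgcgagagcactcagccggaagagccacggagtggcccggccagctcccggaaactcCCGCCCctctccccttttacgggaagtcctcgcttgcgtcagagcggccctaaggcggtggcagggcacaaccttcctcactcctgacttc
Bcl2: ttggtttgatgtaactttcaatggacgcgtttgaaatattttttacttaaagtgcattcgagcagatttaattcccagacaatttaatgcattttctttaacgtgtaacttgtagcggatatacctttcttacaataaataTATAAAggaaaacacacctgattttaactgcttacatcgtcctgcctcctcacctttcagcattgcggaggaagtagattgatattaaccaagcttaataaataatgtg

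The Bcl2l11 window held 71.0% G and C over its 300 bases, with a FoxO core element that begins 204 bases before the start site and GC boxes that begin 188 and 51 bases before it. FoxO factors are known regulators of Bcl2l11 in other cells. The Mcl1 window held 64.3% G and C and a GC box on the minus strand, 91 bases before the start site. The Bcl2 window held 32.7% G and C, with a TATA box 109 bases before the start site and no GC box, against a median of 51.7% G and C over the 33465 windows searched. Among those windows, 3.78% held the FoxO element, 33.1% a GC box and 14.2% a TATA box. These matches describe the sequence and are not evidence that a factor binds there.

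On the authors' TPM scale, which divides by transcript length and so allows genes to be compared, Mcl1 stood at 52.7 ± 8.29 (mean ± SD, n = 15 libraries) and was the highest member in every library. Bax followed at 14.9 ± 2.71, Bak1 at 8.22 ± 2.21 and Bcl2l1 at 6.39 ± 1.74. Casp9 (2.22 ± 0.435) and Bcl2l11 (2.08 ± 0.686) came next, then Casp8 (1.09 ± 0.400) and Bid (0.988 ± 0.337), and Bcl2 was lowest at 0.358 ± 0.154. Of the neighbours in this order, Casp9 exceeded Bcl2l11 in 8 of 15 libraries and Casp8 exceeded Bid in 9 of 15, so these 2 pairs did not differ beyond their spread, and Bak1 exceeded Bcl2l1 in 14 of 15. The other neighbouring pairs kept their order in all 15. Mcl1 supplied 86.1% to 91.5% of the summed TPM of the 3 anti-apoptotic members, whereas Bcl2 supplied 0.279% to 1.09%.

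All 9 members were tested between groups on counts, with edgeR's quasi-likelihood test over all 15 libraries and Benjamini-Hochberg adjustment over the 17201 genes that passed the filter on low counts. A gene was called at an adjusted p under 0.05. Levels of a gene between libraries are given as CPM, counts scaled to the library size with TMM factors, which does not correct for length. Casp8 alone was called, and in 2 comparisons. It rose in the VitD group over the control group (log2 change 0.83, SE 0.234, adjusted p = 0.0423) and fell in the pMT/VitD group below the VitD group (log2 change −0.64, SE 0.190, adjusted p = 0.0285). A share of 8.67% of all tested genes was called in the first comparison and 21.9% in the second, so 1 of 9 members is near the background in both.

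**Figure D1:**
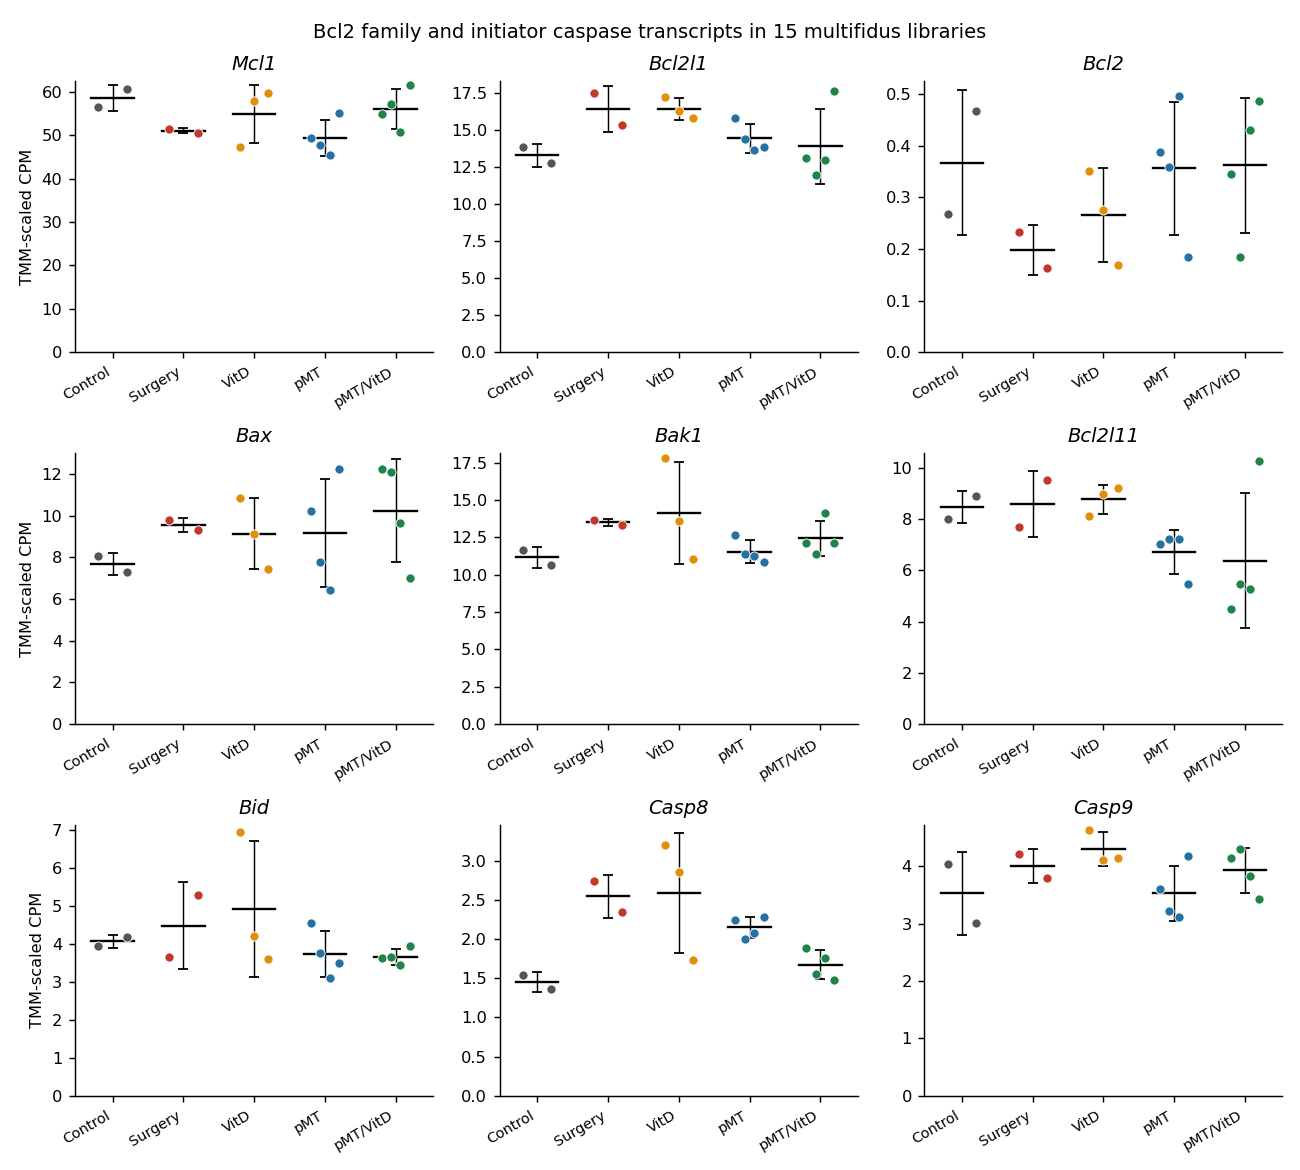
Level of each of the 9 transcripts in TMM-scaled CPM (vertical axes from 0, scale set for each gene), with 1 point per library, the mean as a line and the SD as error bars, for groups of 2 (Control, Surgery), 3 (VitD) and 4 (pMT, pMT/VitD) libraries. Casp8 was lowest in Control (1.37 and 1.55) and the pMT/VitD libraries (1.48 to 1.88), and 1 pMT/VitD library stood above its group for Bcl2l11 and Bcl2l1.

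Among the anti-apoptotic members, Mcl1, a short-lived protein that restrains Bak1 in particular, was at 56.5 and 60.8 CPM in control and 51.5 and 50.7 after surgery. It was at 47.2, 58.0 and 59.7 CPM in the VitD group, 49.4, 47.8, 45.4 and 55.1 in the pMT group and 54.9, 57.3, 50.7 and 61.6 in the pMT/VitD group. Both surgery libraries lay below both control libraries, and no comparison called Mcl1. Its lowest and highest libraries differed 1.36-fold, the narrowest range of the 9.

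Bcl2l1 stood at 13.8 and 12.7 CPM in control and 17.5 and 15.3 after surgery. Its level was 17.2, 16.3 and 15.8 CPM in the VitD group and 15.8, 14.4, 13.6 and 13.8 in the pMT group. The pMT/VitD libraries read 13.1, 11.9, 12.9 and 17.6 CPM. The fourth pMT/VitD library was thus the highest of all 15, while the other 3 were below the lower surgery library and all VitD libraries. Both surgery libraries and all 3 VitD libraries were above both controls, as in 31.7% and 25% of all tested genes. The adjusted p of edgeR's quasi-likelihood test for these 2 comparisons was 0.355 and 0.208.

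Bcl2, the founding member of the family, was counted only 10 to 36 times per library, so that counting error alone is large. It was at 0.268 and 0.467 CPM in control, 0.233 and 0.164 after surgery and 0.351, 0.276 and 0.169 in the VitD group. The pMT libraries read 0.387, 0.358, 0.496 and 0.185 CPM and the pMT/VitD libraries 0.346, 0.185, 0.430 and 0.486. The group mean was lowest after surgery (0.198 ± 0.0487 CPM, n = 2) and close to the control mean (0.367 ± 0.140, n = 2) in both groups that received mitochondria (0.357 ± 0.129 and 0.362 ± 0.131, n = 4 each). One library of each of these groups lay within the surgery range, and the smallest adjusted p of Bcl2 in a comparison with the surgery group was 0.321. Differences of Bcl2 between these groups could thus not be told from the spread between libraries.

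Of the pore formers, Bax was at 8.06 and 7.30 CPM in control and 9.77 and 9.29 after surgery. The VitD libraries read 10.8, 9.11 and 7.44 CPM, the pMT libraries 10.2, 7.78, 6.42 and 12.2, and the pMT/VitD libraries 12.2, 12.1, 9.65 and 7.01. Both surgery libraries lay above both controls, and each treated group spanned the surgery values. The direction against surgery depended on the scale, since the pMT/VitD mean was above the surgery mean in CPM (10.2 ± 2.46 against 9.53 ± 0.340) and below it in TPM (13.8 ± 1.85 against 17.7 ± 0.637). The pMT/VitD mean was also below when counts were scaled by library size only (log2 change −0.24). The median of all tested genes was then −0.32, so Bax lay above that median. With a trend with gene length removed, the Bax change was −0.17, below a median of −0.02 over all tested genes.

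Bak1, the other pore former, stood at 11.7 and 10.6 CPM in control and 13.7 and 13.3 after surgery. It was at 17.8, 13.6 and 11.0 CPM in the VitD group, 12.7, 11.4, 11.3 and 10.8 in the pMT group and 12.1, 11.4, 14.1 and 12.1 in the pMT/VitD group. All 4 pMT libraries lay below both surgery libraries and across the control range, with an adjusted p of 0.571 for pMT against surgery. The first VitD library was the highest of all 15 for Bak1, Bid, Casp8 and Casp9.

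Of the BH3-only members, Bcl2l11 was at 8.03 and 8.91 CPM in control, 7.69 and 9.52 after surgery and 8.13, 9.01 and 9.21 in the VitD group. These 3 groups overlapped. The pMT libraries read 7.04, 7.23, 7.22 and 5.45 CPM, all below both surgery libraries and both controls. Of all tested genes, 17.2% lay below surgery in this way and 7.77% below control. The pMT/VitD libraries read 4.49, 5.49, 5.29 and 10.3 CPM, of which the first 3 were below every control, surgery and VitD library and the fourth was the highest of all 15. With that library in, the mean of 6.39 ± 2.63 CPM (n = 4) was not called lower than surgery (8.60 ± 1.29, n = 2, adjusted p = 0.305) or than VitD (8.78 ± 0.576, n = 3, adjusted p = 0.154). Without the fourth pMT/VitD library, Bcl2l11 was called lower than surgery (log2 change −0.76, adjusted p = 0.00728) and lower than VitD (−0.79, adjusted p = 0.00157), and so was Bcl2l1 (−0.38, adjusted p = 0.034 and −0.39, adjusted p = 0.0108). In these fits 12.8% and 26.5% of all genes were called, so 2 of 9 members is near the background, and the library left out was the highest of all 15 for both genes.

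Bid, which Casp8 cuts, was at 3.94 and 4.20 CPM in control, 3.67 and 5.29 after surgery and 6.96, 4.21 and 3.62 in the VitD group. It stood at 4.55, 3.77, 3.10 and 3.51 CPM in the pMT group and 3.63, 3.67, 3.44 and 3.95 in the pMT/VitD group. The 5 groups overlapped, and no comparison called Bid.

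Of the initiator caspases, Casp8 was at 1.55 and 1.37 CPM in control and 2.74 and 2.35 after surgery. The VitD libraries read 3.19, 2.85 and 1.73 CPM, the pMT libraries 2.24, 2.0, 2.08 and 2.27, and the pMT/VitD libraries 1.88, 1.56, 1.76 and 1.48. The surgery libraries were above all control and pMT libraries, and the pMT/VitD libraries were below all surgery and pMT libraries while overlapping the controls and the lowest VitD library. Of all tested genes, 20.2% had every pMT/VitD library below every surgery library, and 2.4% had every one below every pMT library, as Casp8 had. The Casp8 difference between pMT/VitD and pMT was not called (log2 change −0.36, SE 0.180, adjusted p = 0.503).

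Casp8 passed an unadjusted p of 0.05 in 3 further comparisons between 2 groups that the adjustment did not pass. These were surgery over control (log2 change 0.80, SE 0.252, adjusted p = 0.118), pMT/VitD below surgery (−0.61, SE 0.213, adjusted p = 0.0956) and pMT over control (0.56, SE 0.224, adjusted p = 1). The comparisons share the surgery, control and VitD libraries and are not independent of each other. The first call, VitD over control, was lost without either control library (adjusted p = 0.193 and 0.245 without the first and second). It was also lost without the first VitD library (0.152) or without the second (0.104). The shares of all tested genes called were 0.0731%, 0.163%, 3.58% and 4.51% in the same order, beside 8.67% with all 15 libraries. The second call, pMT/VitD below VitD, was lost without replicate 2 or 4 of the pMT/VitD group (0.0708 and 0.0512). It was also lost without the first or second VitD library (0.152 and 0.101). Here 15.6%, 26.5%, 10.9% and 14.7% of all tested genes were called in the same order, beside 21.9% with all 15 libraries.

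Casp9 stood at 4.04 and 3.02 CPM in control, 4.21 and 3.79 after surgery and 4.63, 4.10 and 4.14 in the VitD group. It was at 3.61, 3.22, 3.11 and 4.18 CPM in the pMT group and 4.15, 4.30, 3.83 and 3.42 in the pMT/VitD group. The VitD libraries were above both controls, as they were for 25% of all tested genes, and Casp9 was called in no comparison.

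**Figure D2:**
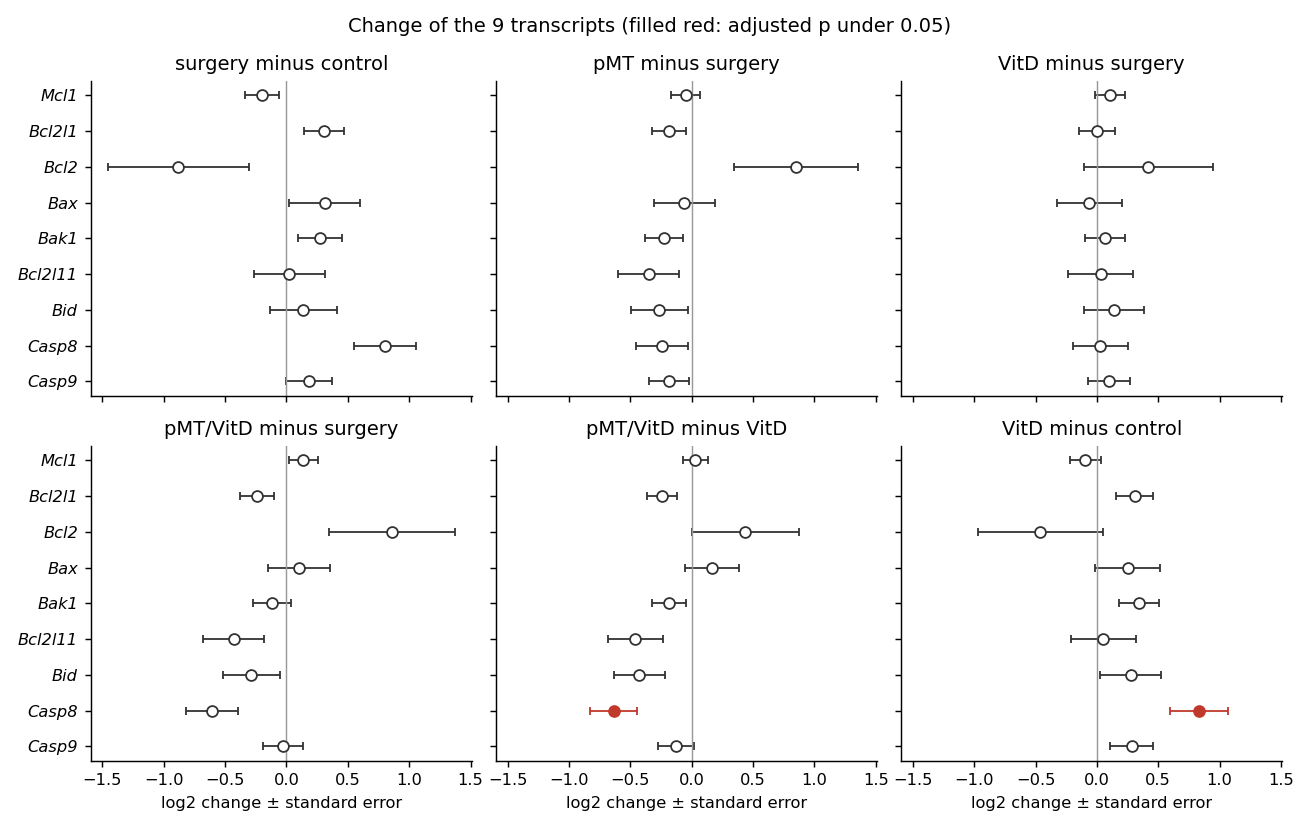
Log2 change of each of the 9 transcripts in 6 comparisons (points, horizontal axis) with its standard error (bars), from edgeR's quasi-likelihood fit over 15 libraries, with red for an adjusted p under 0.05. Casp8 is red in pMT/VitD minus VitD (−0.64) and VitD minus control (0.83), and the bars of Bcl2 are the widest.

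Taken as a list, the 9 members had a median log2 change of 0.18 (range −0.88 to 0.80) for surgery against control, beside −0.01 over all tested genes, and none was called, where 1.55% of all genes were. Of the 9, 7 were higher and 2 lower, and in 4 (Bax, Bak1, Bcl2l1 and Casp8) both surgery libraries lay above both controls while in 2 (Bcl2 and Mcl1) both lay below. Over all tested genes, 31.7% lay above in this way and 34.4% below. With edgeR's exact test on these 4 libraries alone, the form of test named in the study's methods, the same 4 members that lay above were called (adjusted p = 0.000264 for Casp8, 0.00853 for Bcl2l1, 0.014 for Bak1 and 0.0143 for Bax), and 36.3% of all genes were called too. The study also required a fold change of at least 2, which was not applied here. In the fit over 15 libraries the folds were 1.75 for Casp8, 1.24 for Bcl2l1, 1.21 for Bak1 and 1.24 for Bax.

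For pMT against surgery, the question closest to the study's aim, no member was called, with 1.94% of all genes called, and none passed an unadjusted p of 0.05. The median log2 change was −0.19 (range −0.35 to 0.85), beside 0.02 over all tested genes. Of the 9 members, 8 were lower and 1, Bcl2, was higher, and this split was the same with RLE factors, with library size only and with the length trend removed. The pMT libraries lay below both surgery libraries for Bak1, Bcl2l11 and Casp8, as they did for 17.2% of all tested genes.

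For VitD against surgery the 9 members ranged from −0.06 to 0.42 on the log2 scale with a median of 0.07, and no member and no gene was called (0% of genes called, 139 genes at an unadjusted p under 0.05 with edgeR, 0 of them members). With edgeR's exact test on the 2 groups alone 6 genes were called, none of them a member. For pMT/VitD against surgery the median was −0.12 (range −0.61 to 0.86), with 0 members called beside 7.44% of genes. For pMT/VitD against pMT the median was 0.01 (range −0.36 to 0.18), with 0 members and 0% of genes called, although 1737 genes passed an unadjusted p of 0.05 by edgeR, none of them a member.

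For pMT/VitD against VitD the median was −0.19 (range −0.64 to 0.44), with 3 members higher and 6 lower, and for VitD against control it was 0.28 (range −0.46 to 0.83), with 7 higher and 2 lower. Against control, neither pMT (median 0.00) nor pMT/VitD (median 0.07) gave a called member or gene (0% each, 528 and 496 genes at an unadjusted p under 0.05 by edgeR). The interaction of pMT and VitD, the amount by which the pMT difference with vitamin D departs from that without it, was called for no member and no gene (0%, 888 at an unadjusted p under 0.05 by edgeR), with members between −0.41 and 0.22. The test for any difference among the 5 groups called no member and 11.8% of genes, with Casp8 at an adjusted p of 0.0576.

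In the 5 comparisons in which edgeR's quasi-likelihood test called no gene, other tools gave other counts of genes. DESeq2 called 0 for VitD against surgery, 89 for pMT/VitD against pMT, 0 for pMT against control, 1 for pMT/VitD against control and 0 for the interaction, no member among them. edgeR's exact test called 0 for pMT/VitD against pMT, 12 for pMT against control and 4 for pMT/VitD against control, again without a member. limma voom with sample quality weights, which gives less weight to libraries that deviate, called 405, 6617, 231, 1865 and 5417 genes in the order of the DESeq2 counts, and 0, 4, 1, 2 and 2 members. The 4 members for pMT/VitD against pMT were Bax, Bcl2l11, Mcl1 and Casp9.

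Scaling by library size only moved the median log2 change of all tested genes to 0.25 for surgery against control, 0.27 for VitD against control, −0.32 for pMT/VitD against surgery and −0.34 for pMT/VitD against VitD, and relative to those medians the members split 7 above to 2 below, 7 to 2, 3 to 6 and 3 to 6. The relative splits with TMM scaling were the same 7 to 2, 7 to 2, 3 to 6 and 3 to 6. Removing the gene length trend gave 2 to 7 for pMT/VitD against surgery, where Bax turned, and 1 to 8 for pMT/VitD against VitD, where Bax and Mcl1 turned.

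Bcl2l11 was lower and Bax mostly higher in 4 libraries that shared a negative trend with gene length across the transcriptome. In each library the deviation of genes from their mean over libraries was ranked against relative gene length (count over TPM) over 11399 genes, as a description across genes. The Spearman rho ran from −0.577 to −0.274 in 4 libraries, namely the first 3 of the pMT/VitD group and the fourth of the pMT group, and from −0.0781 to 0.645 in the other 11. In those 4, Bcl2l11, a member with long transcripts (longer than 84.5% of tested genes), was at 4.49 to 5.49 CPM. It was at 7.04 to 10.3 in the other 11, without a steady rise with rho. The highest rho, 0.645 and 0.544 in replicates 3 and 2 of the pMT group, went with 7.22 and 7.23 CPM, below both controls. Bax, the shortest member (longer than 8.01% of tested genes), was at 9.65 to 12.2 CPM in those 4 and at 6.42 to 10.8 in the other 11.

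With the trend removed, Bcl2l11 was still lower in those 4 libraries (5.13 to 6.21 CPM) than in the other 11 (6.37 to 9.70), and Bax overlapped (8.74 to 10.1 against 7.56 to 11.0). Bid, which has the longest transcripts of the 9, was at 3.44 to 3.67 CPM (median 3.57) in the 4 libraries before the trend was removed. In the other 11 it was at 3.10 to 6.96 (median 3.95). With the trend removed, the medians of Bid were 4.09 CPM in the 4 libraries and 3.83 in the other 11. Casp8, of middle length, was called in the same 2 comparisons after the trend was removed. The part of the trend in the differences of Bcl2l11, Bax and Bid was not tested.

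**Figure D3:**
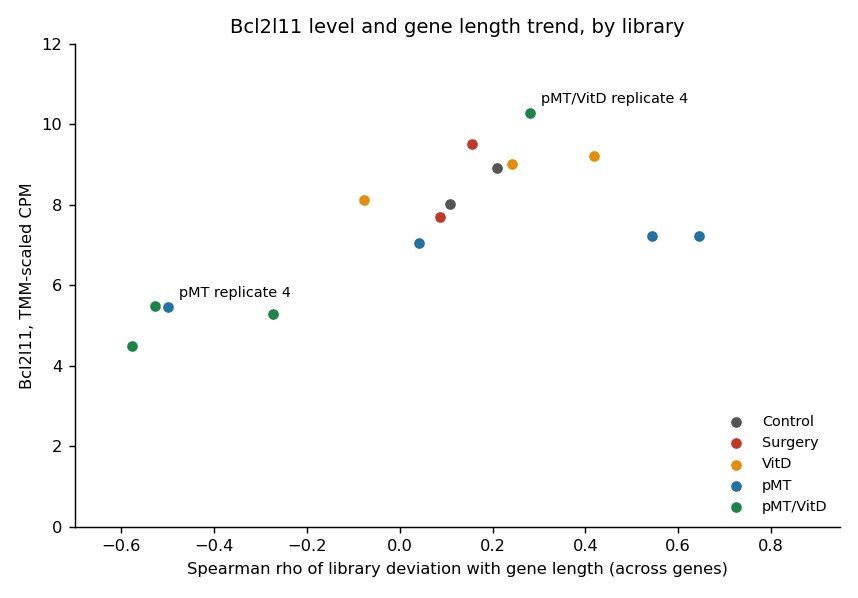
Bcl2l11 level in TMM-scaled CPM (vertical axis, from 0) against the Spearman rho of each library's deviation with gene length (horizontal axis), with 1 point per library, coloured by group. The 4 libraries with a rho under −0.2 are at 4.49 to 5.49 CPM, and the labelled replicate 4 of the pMT group lies with them, while replicate 4 of the pMT/VitD group, at 10.3 CPM, lies with the other 11.

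Replicate 4 of the pMT group and replicate 4 of the pMT/VitD group were the 2 libraries that lay apart from their own groups in the length trend. Without both, 3 members (Bcl2l1, Bcl2l11 and Casp8) were called among the 5 groups, when 29.8% of all genes were. Bcl2l11 was then at 5.09 ± 0.525 CPM (n = 3) in pMT/VitD and 7.16 ± 0.106 (n = 3) in pMT, a log2 change of −0.49 beside −0.08 (adjusted p = 0.922) with all 15. As the 2 omitted libraries held the lowest pMT and the highest pMT/VitD value of Bcl2l11, leaving them out separates the groups by itself, and nothing is read from the call that results. In the same fit, Bcl2l1 and Bcl2l11 were called lower than surgery (20.1% of genes called), and Bcl2l1, Bcl2l11 and Casp8 lower than VitD (32% of genes called). These counts rest on leaving out libraries after their values were seen and are given beside the values with all 15.

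The balance of the pore former Bax and the anti-apoptotic Bcl2 is often summarised as a ratio, given here as a description on the TPM scale. It was 22.9 and 44.7 in control and 60.3 and 85.2 after surgery. It ran from 44.0 to 65.8 in the VitD group, from 18.8 to 101 in the pMT group and from 21.1 to 101 in the pMT/VitD group. Both surgery libraries were above both controls, and each group given mitochondria spanned nearly the whole range of the data. The ratio of Bax to Mcl1, whose counts are far larger, was 0.199 and 0.236 in control and 0.304 and 0.315 after surgery, and ran from 0.207 to 0.381 in the VitD group, from 0.234 to 0.367 in the pMT group and from 0.188 to 0.369 in the pMT/VitD group. The ratio of Bax to Bcl2l1 overlapped between control (2.15 and 2.23) and surgery (2.10 and 2.33).

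The other genes of apoptosis were taken from a list of 42 arranged by role, of which 40 passed the filter on low counts. Of these 40, 0 were called for surgery against control, 1 for pMT against surgery, 4 higher and 3 lower for pMT/VitD against surgery, 6 higher and 8 lower for pMT/VitD against VitD, and 1 higher and 2 lower for VitD against control. The median log2 change of the 40 was 0.13 for surgery against control, −0.08 for pMT against surgery, −0.16 for pMT/VitD against surgery, −0.26 for pMT/VitD against VitD and 0.21 for VitD against control, beside medians of all tested genes between −0.01 and 0.02. In the other comparisons between 2 groups and in the interaction, 0 of the 40 were called. Over all tested genes the shares called higher and lower were 1.25% and 0.296% for surgery against control, 0.395% and 1.55% for pMT against surgery, 2.4% and 5.03% for pMT/VitD against surgery, 9.66% and 12.2% for pMT/VitD against VitD, and 5.48% and 3.2% for VitD against control.

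Of the executioner caspases, Casp6, which cleaves lamins among other proteins, fell in pMT/VitD below VitD (log2 change −0.96, SE 0.320, adjusted p = 0.046).

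Among the death receptors that act upstream of Casp8, Fas was lowest in the surgery and VitD libraries. It was at 3.75 and 4.15 CPM in control, 2.49 and 2.82 after surgery and 2.26, 2.58 and 2.93 in the VitD group. It was at 4.18, 4.13, 4.29 and 5.29 CPM in the pMT group and 4.21, 4.65, 3.55 and 4.24 in the pMT/VitD group, above every surgery and VitD library. Over all tested genes, 13.2% lay above in this way for pMT against surgery. The shares were 16.6% for pMT/VitD against surgery and 13% for pMT/VitD against VitD. Fas rose in pMT over surgery (log2 change 0.75, SE 0.165, adjusted p = 0.0335), a call lost when any 1 of the 6 libraries of these groups was left out. It also rose in pMT/VitD over surgery (0.65, adjusted p = 0.0313) and over VitD (0.69, adjusted p = 0.00486) and fell in VitD below control (−0.61, adjusted p = 0.038). Tnfrsf10b, a receptor for the ligand TRAIL with 7 to 115 counts per library, fell in pMT/VitD below VitD (−1.66, SE 0.359, adjusted p = 0.00579).

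Among the proteins released from or acting beyond the mitochondrion, Endog, a mitochondrial nuclease, rose in pMT/VitD over surgery (log2 change 0.50, adjusted p = 0.0296) and over VitD (0.82, adjusted p = 0.000441) and fell in VitD below control (−0.45, adjusted p = 0.0468). Apaf1, the scaffold of the apoptosome that activates Casp9, fell in pMT/VitD below surgery (−0.58, adjusted p = 0.0138), as did Ripk1, a kinase of death receptor complexes (−0.58, adjusted p = 0.0363), and Tnfsf10, the ligand TRAIL (−0.40, adjusted p = 0.0467). Birc3, an inhibitor of apoptosis, rose in pMT/VitD over surgery (0.66, adjusted p = 0.0448) and over VitD (0.55, adjusted p = 0.024). Birc5 (survivin), which also serves cell division, fell in pMT/VitD below VitD (−1.23, adjusted p = 0.0385). Bbc3 (Puma), a BH3-only protein, rose in VitD over control (1.14, SE 0.332, adjusted p = 0.0467).

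These counts rested on few libraries. For pMT/VitD against surgery the 7 called genes of the 40 became 0 without either surgery library. They became 2 and 1 without the first and second pMT/VitD library. The share of all tested genes called fell from 7.44% to 0.727% and 0.687% without the first and second surgery library. It was 3.98% and 3.48% without the first and second pMT/VitD library. For pMT/VitD against VitD the 14 became 7 and 6 without the first and second VitD library and 9 without the second pMT/VitD library. The shares of all tested genes called were 10.9%, 14.7% and 15.6% in the same order, beside 21.9% with all 15 libraries. For VitD against control the 3 became 0 without either control library, 1 and 0 without the first and second VitD library and 7 without the third.

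**Figure D4:**
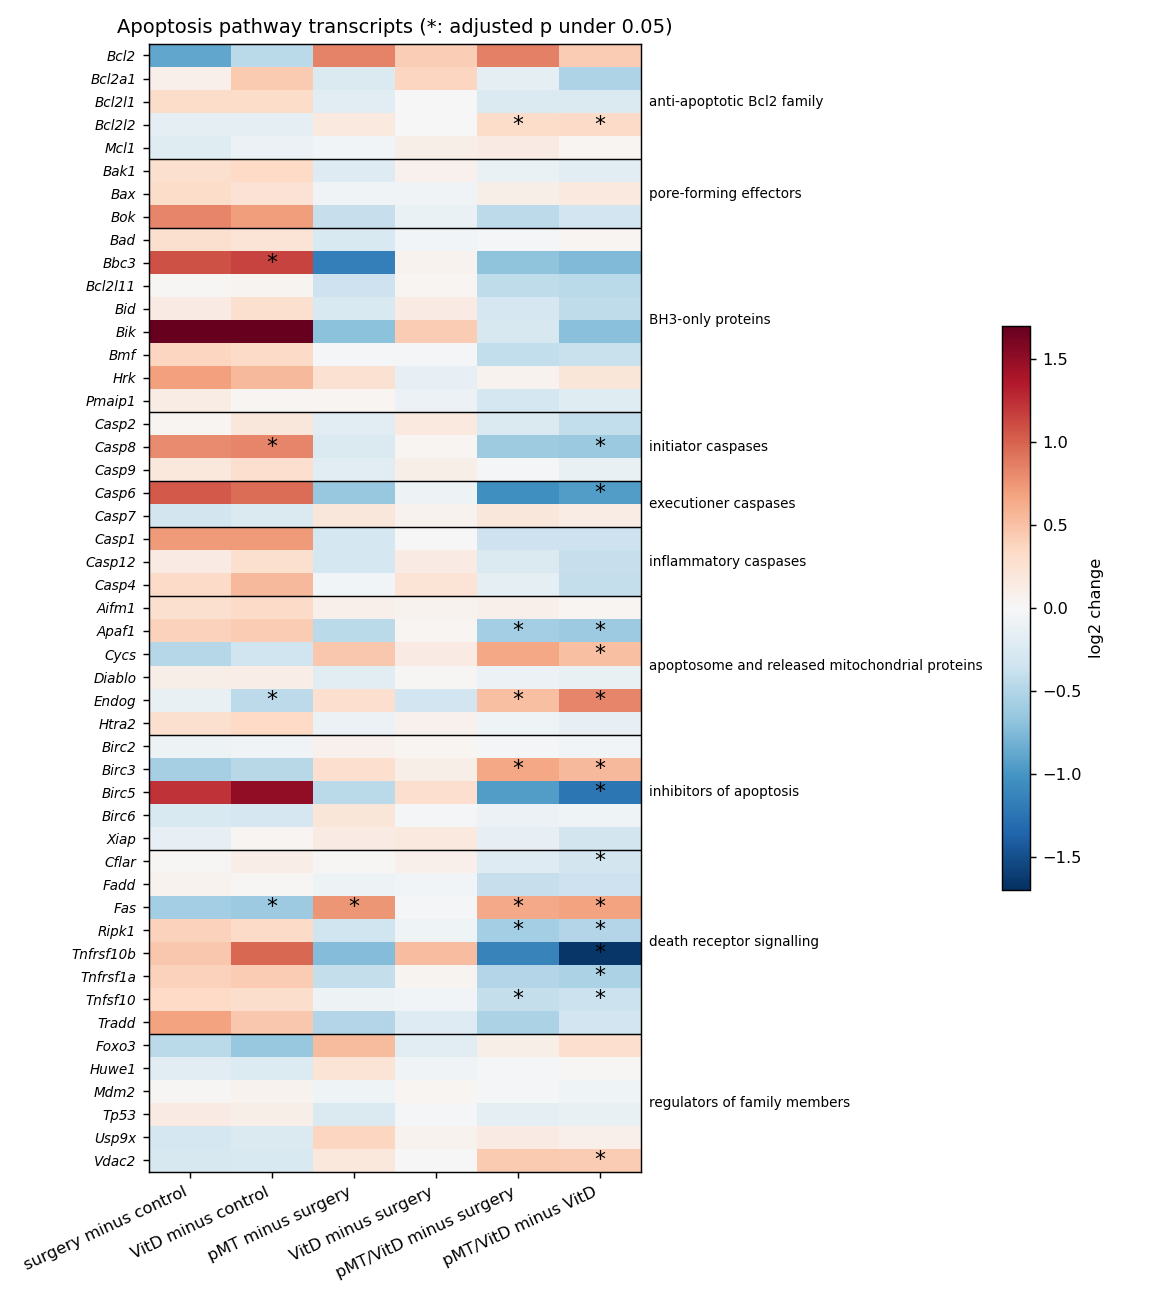
Log2 change (colour, scale at right, with larger changes drawn in the end colours) of the 49 tested genes of the apoptosis list, members included, in rows by role and 6 comparisons in columns, with an asterisk for an adjusted p under 0.05. VitD minus surgery and surgery minus control hold no asterisk, and pMT/VitD minus VitD holds 15, of which 1 (Casp8) is a member.

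The tissue expressed the muscle fibre markers strongly (summed level of Ckm, Acta1, Myh1, Myh2, Myh4, Ttn and Des 86682 to 156140 CPM, lowest in the first VitD library). Of these 7, Des was called lower in VitD than in control, where 2 of the 7 were higher and 5 lower. Ckm, Des and Myh4 were called higher in pMT/VitD than in VitD, where 4 were higher and 3 lower. These are the 2 comparisons that called Casp8, with 8.67% and 21.9% of all genes called. The 7 macrophage markers (Cd68, Cd163, Csf1r, Cd14, Adgre1, Mrc1 and C1qa) followed Casp8 in part. Against control, 6 were higher after surgery and 7 in VitD, as Casp8 was, but 5 were lower in pMT and 7 in pMT/VitD, where Casp8 was not. Their summed level was 154 to 163 CPM in control, 286 to 290 after surgery, 264 to 358 in the VitD group, 105 to 180 in the pMT group and 96.1 to 182 in the pMT/VitD group. Of the 7, 3 were called higher in VitD than in control (8.67% of all genes called) and 6 were called lower in pMT/VitD than in VitD (21.9%). All 7 were lower in pMT/VitD than in surgery, 6 of them called (7.44% of all genes). All 7 were also lower in pMT than in surgery, 2 of them (Adgre1 and C1qa) called (1.94% of all genes). The summed level of the 8 B and T lymphocyte markers was 4.34 to 5.47 CPM in control, 7.27 to 8.86 after surgery, 8.93 to 11.3 in VitD, 4.68 to 6.32 in pMT and 4.49 to 5.45 in pMT/VitD. Of them, Ptprc was called lower in pMT/VitD than in VitD (log2 change −1.08). Fibroblast markers (Pdgfra, Dcn, Col1a1 and Col3a1) summed to 2366 to 2385 CPM in control, 4105 to 4125 after surgery, 3451 to 6469 in VitD, 2312 to 2756 in pMT and 1740 to 2566 in pMT/VitD. Of the 4, 2 were called higher in VitD than in control and 3 lower in pMT/VitD than in VitD. Below surgery, 2 were called in pMT/VitD and 1 (Col1a1) in pMT. Of the endothelial, adipocyte and Schwann cell markers, 11 in all, 1 (Pecam1, lower in pMT/VitD than in VitD) was called between 2 groups. Another endothelial marker, Kdr, was called in the test for any difference among the 5 groups, as were 11.8% of all genes. The part of these cells in the Casp8 differences was not tested, and in bulk tissue more cells of a type cannot be told apart from more RNA per cell.

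**Figure D5:**
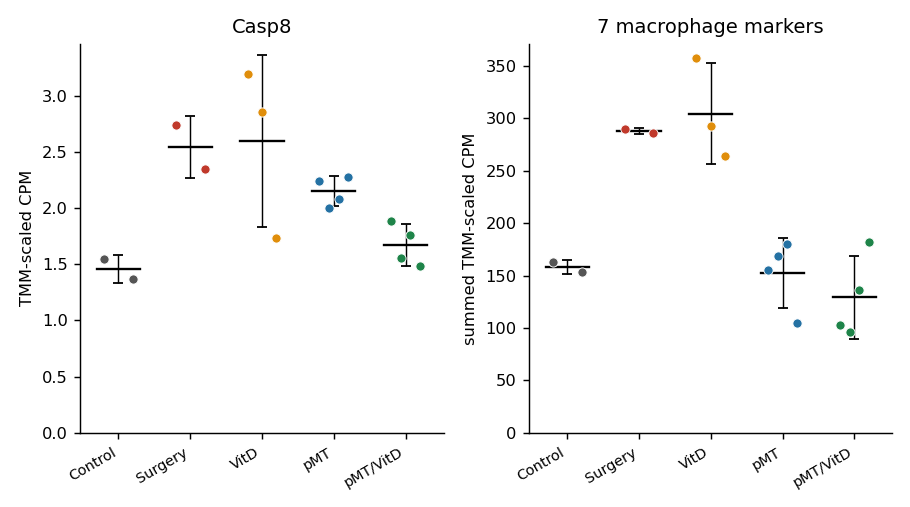
TMM-scaled CPM (vertical axes, from 0) of Casp8 and the sum of 7 macrophage markers, with 1 point per library, the mean as a line and the SD as error bars, in groups of 2, 2, 3, 4 and 4 libraries. In both panels the surgery libraries lie above the controls and above the pMT and pMT/VitD libraries.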

How the data were processed

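Multifidus RNA was measured by paired-end RNA-seq in 15 libraries, whose groups came from the sample labels. Per the submitters' processing notes and the methods, reads were trimmed with Trimmomatic 0.38, aligned to rn6 with HISAT2 2.1.0, sorted with SAMtools 1.9 and quantified with StringTie 2.1.3b. The authors deposited raw read counts per gene, TPM values which they scaled to 1 common total per library, and FPKM values, which were not used here. Handling of strand and of reads with several alignments is not given in the sources used here, so genes that overlap or have near-identical copies are uncertain.

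Total counts ran from 52342134 to 73557878 per library (median 64352162), and TMM factors from 0.849 to 1.20. The 13 protein genes of mitochondrial DNA took 10.7% to 22.6% of counts, highest in the fourth pMT library. Counts were tested in R 4.3.3 with edgeR 4.0.16 (filterByExpr, TMM, robust glmQLFit, glmQLFTest on a model of group means over 15 libraries), as 11 comparisons, each adjusted over 17201 genes and called at an adjusted p under 0.05. Scripts were tested on simulated data. TPM served for levels between genes, and counts divided by TPM for relative length. The length trend was removed with a lowess curve (span 0.3) per library. Gene names came from the table and promoters from RefSeq (GRCr8), matched by gene identifier.

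The members, the apoptosis list and the marker lists were chosen with earlier results of these data known. All members were named, and of the other apoptosis genes those called, at most the 3 largest changes in each direction per comparison. 1 gene of that list is not reported here. Log2 changes were planned for members called or at an unadjusted p under 0.05, and others were printed after their values were seen. Alternatives were RLE factors, library size only, filters, the replicate block, the length trend, omitted libraries, fits of the compared groups alone, edgeR's exactTest, limma 3.58.1 voom with sample weights and DESeq2 1.42.0.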

Additional observations from a re-analysis of the deposited data

Results flagged for a closer look

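Bcl2l11 was at 5.45 CPM in the fourth pMT library, while the other 3 libraries of that group lay between 7.04 and 7.23. The gap to the nearest of them was 0.895 of the group's range, above Dixon's limit for 4 samples. The members were examined in this way in 18 sets of 4 libraries (9 genes in 2 groups), of which 1 passed and 0.9 would pass by chance, since chance passes about 5% of groups. This library also had a negative trend with gene length (rho −0.499) and the highest share of mitochondrial counts (22.6%), whose part in the value was not tested.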

How the results depend on the processing

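Of 199 recomputed counts of called members, 158 stayed within 1.5 times the reported count, and 89 of 118 when those that leave out 1 library are set aside. The reported count was 0 in all but 2 comparisons, so most of the unchanged counts are a 0 that stayed 0. For surgery, VitD and pMT against control, and pMT/VitD against surgery and VitD, the direction of the Casp8 change held under every alternative run. The other comparisons are not covered by this statement. The percentages give the share of all genes called in the same fit. With library size only, the members called were 2 among the 5 groups (20.8%), 1 for surgery against control (5.8%), 1 for pMT/VitD against surgery (18.9%), 7 for pMT/VitD against VitD (33.5%) and 2 for VitD against control (16.2%). With no filter on low counts, 0 were called for VitD against control (4.82%), where more genes share the adjustment. Fits of the compared groups alone and edgeR's exactTest each called 4 for surgery against control (32.4% and 36.3%) and 0 for both pMT/VitD against VitD (11.3% and 17.9%) and VitD against control (0.579% and 12.9%). DESeq2 called 1 among the 5 groups (21.6%). Without replicate 4 of both the pMT and the pMT/VitD group, 3 were called among the 5 groups (29.8%), 2 for pMT/VitD against surgery (20.1%), 1 for pMT/VitD against pMT (18.3%), 3 for pMT/VitD against VitD (32%) and 2 for VitD against control (15.1%). limma voom with sample weights called 7 members among the 5 groups (66.7%), 4 for surgery against control (28.7%), 4 for pMT against surgery (37.7%), 3 for pMT/VitD against surgery (39.5%), 4 for pMT/VitD against pMT (38.5%), 4 for pMT/VitD against VitD (48.9%), 1 for pMT against control (1.34%), 3 for VitD against control (37.5%), 2 for pMT/VitD against control (10.8%) and 2 for the interaction (31.5%). Except as shown above for the omitted libraries, the cause of these shifts was not tested. Leaving out 1 library gave 0 to 2 members among the 5 groups, for pMT/VitD against surgery, for pMT/VitD against VitD and for VitD against control, and 0 in the other comparisons.

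Whether replicate numbers pair the libraries could not be decided. Over 24 pairs of libraries with the same number, deviations from the group means correlated between −0.806 and 0.331, and 5 pairs were over 0.1. In a group of 2 libraries the deviations mirror each other, so these pairs are not independent. With the replicate number as a block, 0 members were called for pMT/VitD against VitD (Casp8 log2 change −0.60, adjusted p = 0.0564), beside 15.7% of all genes. The 7 other apoptosis genes called for pMT/VitD against surgery became 0, as the share of all genes called fell from 7.44% to 2.03%.

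With 2 control and 2 surgery libraries and 10 to 36 counts of Bcl2 per library, changes of Bcl2 were measured with a standard error of 0.402 to 0.574 on the log2 scale between groups, and changes as large as −0.88 and 0.86 were not called.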

Other observations

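The genes whose level across the 15 libraries was most like that of 3 members, by the root mean square difference of centred log2 CPM over 11399 genes, were found for the members with the widest range of group means. For Casp8 they were B4galt4 (0.153) and LOC108348176 (0.160), for Bcl2l11 Plagl1 (0.137) and Stat6 (0.140), and for Bcl2 Ros1 (0.294) and Slc43a3 (0.320). Group means of B4galt4, a galactosyltransferase gene, were 2.29 CPM in control, 3.27 in surgery, 3.78 in VitD, 3.03 in pMT and 2.57 in pMT/VitD. Group means of Stat6, the transcription factor of interleukin signalling, were 12.5, 13.6, 13.5, 11.0 and 10.5 CPM in the same order. The likeness of the Bcl2 neighbours is looser, at 10 to 36 counts of Bcl2 per library.

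Foxo3, a transcription factor known to act on Bcl2l11 and named here after its values were seen, ran from 1.98 to 4.19 CPM in the 4 libraries with a negative trend with gene length and from 2.54 to 12.4 in the other 11. It was not called among the 5 groups.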
